A study of Mus musculus with 7 samples.

Results

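Confluent mouse 3T3-L1 cells that had spent 4 h in conditioned medium were compared with confluent cells taken before differentiation. The members are the 10618 protein-coding genes with an FPKM (fragments per kilobase of transcript relative to all mapped fragments) of at least 1 in either library, of 20164 protein-coding genes and 23996 genes in the table. 3T3-L1 is an embryonic fibroblast line that becomes fat cells under hormonal inducers. The group called 4h CM received conditioned medium, that is, MDI medium collected from a donor culture of 3T3-L1 cells after 48 h of differentiation. MDI holds IBMX, dexamethasone (Dexa in the labels) and insulin. The group called 0h control was confluent and had received no inducer. The other 5 libraries were 4h MDI, 24h CM and 24h MDI, and the preconfluent pair Pro CM and Pro MDI, for which no time is given. Each of the 7 groups is 1 library of the same cell line, and the stated aim was to find a factor on which differentiation of the line depends. No library kept for 4 h without inducers was analysed here, so the inducers, the factors that donor cells had added to or taken from the medium, the change of medium and elapsed time cannot be told apart. A difference between single libraries has no replicate check, and no test was made of it. It is given as log2(FPKM + 1) in 4h CM minus that at 0h, a scale that understates the difference of weakly expressed genes, and a gene is called higher or lower where this reaches 1 (2-fold).

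Differentiation of these cells starts from arrest at confluence. Dexamethasone binds the glucocorticoid receptor, which then acts on genes through its response elements. IBMX blocks phosphodiesterases, so that cAMP accumulates and protein kinase A phosphorylates the transcription factor CREB, and insulin at high dose acts through the insulin and IGF1 receptors. The early factors C/EBP-beta and C/EBP-delta come first and later give way to PPAR-gamma and C/EBP-alpha, which switch on the genes of the fat cell.

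Of the 10618 members, 991 (9.33%) were higher in 4h CM and 975 (9.18%) were lower, with a median difference of -0.03 over all of them. In RNA from whole cultures a lower level can mean less RNA per cell or fewer cells that express the gene, which cannot be told apart. At least 4-fold, 200 were higher and 105 lower, and at least 8-fold, 49 were higher and 12 lower. The higher genes included abundant ones: of the 757 members with a mean FPKM of 100 or more, 14.8% were higher and 1.72% lower. Among the 2461 members with a mean under 5, 4.31% were higher and 14.5% lower. The median FPKM of the higher genes was 34.8 in 4h CM and 11.2 at 0h, and that of the lower genes 3.34 in 4h CM and 10.7 at 0h. An FPKM of at least 1 was reached in 4h CM alone by 138 members and at 0h alone by 550. The member nearest that threshold had an FPKM of 1.00 in its higher library, against 0.999 for the nearest gene left out.

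FPKM of all genes summed to 681510 in 4h CM and 558532 at 0h. Scaling both to the same sum (TPM) lowers every ratio by 0.29 on the log2 scale, so a gene whose ratio lies above 1 by less than that changes direction under TPM, and the counts became 673 higher and 1890 lower. Differences below are on the FPKM as deposited and can be read against that shift, and the counts of a list against the 9.33% higher and 9.18% lower of all members. Ribosomal protein genes took 28.6% of the members' summed FPKM in 4h CM and 28.0% at 0h. The p-values and q-values of the authors' deposited table compare libraries without replicates. At q under 0.1 there were 24 members. The authors' own short list at 2-fold and that q held 20 higher and 3 lower genes.

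**Figure D1:**
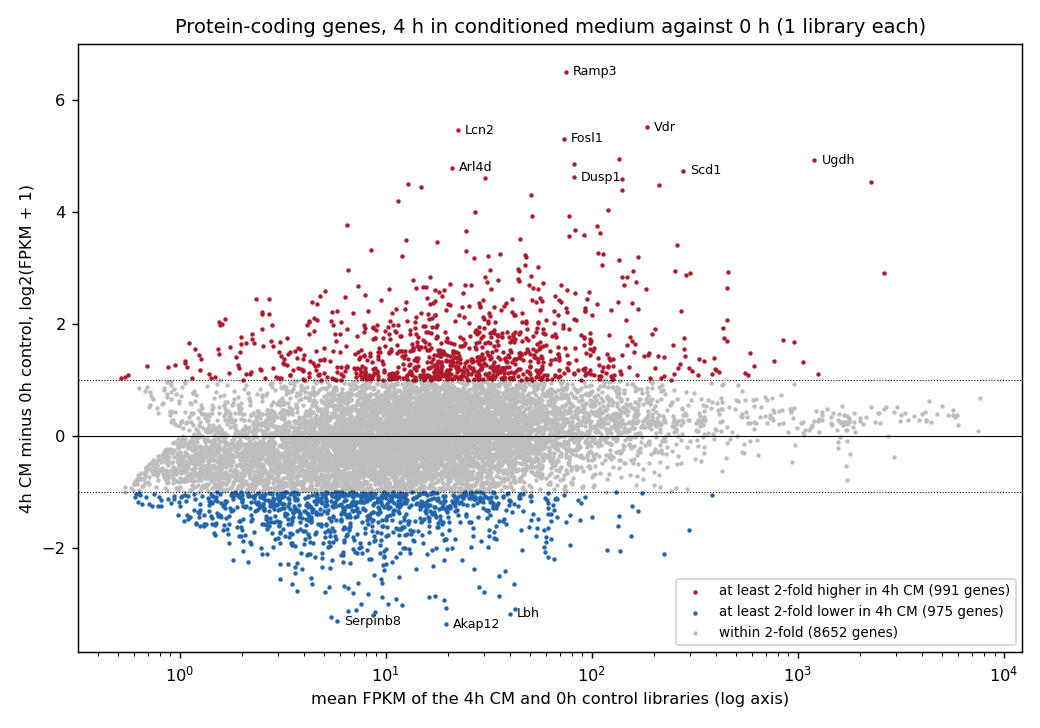
Each point is 1 of 10618 protein-coding genes, with its mean FPKM in the 4h CM and 0h control libraries on a log axis and the 4h CM minus 0h control difference in log2(FPKM + 1). Red points are the 991 genes at least 2-fold higher in 4h CM and blue points the 975 at least 2-fold lower; names mark some of the 12 highest and 12 lowest genes.

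The label gives these cells the type adipocyte, and the libraries showed fibroblast genes at high levels with part of the fat cell genes. The 16 fibroblast and preadipocyte markers looked up, 13 of them members, summed to 9994 FPKM in 4h CM and 12294 at 0h. The 30 genes of the mature fat cell, 15 of them members, summed to 413 FPKM in 4h CM and 368 at 0h. Lpl, lipoprotein lipase, was the most abundant of the 30, and 6 were listed at 0 in both libraries. Adipoq, which encodes the fat cell hormone adiponectin, was at 0.0511 FPKM in 4h CM and 0.0924 at 0h, and the lipid droplet gene Plin1 at 0 in 4h CM and 0.0238 at 0h. Of 8 macrophage markers looked up, 2 were members, Cd14 with 3.17 FPKM in 4h CM and 3.70 at 0h and Cd68 with 1.74 in 4h CM and 0.654 at 0h, and the leukocyte marker Ptprc was listed at 0 in both libraries. No endothelial, epithelial or brown fat marker was a member. Of the bone and cartilage markers, Sox9 had 21.3 FPKM in 4h CM and 23.1 at 0h, and Runx2, the osteoblast regulator, 2.95 in 4h CM and 16.6 at 0h.

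The 12 highest members, among those with an FPKM of at least 5 in the higher library, joined a receptor accessory protein, a nuclear receptor, enzymes and regulators of signalling. Ramp3 (chromosome 11, 6650148 to 6677475), which pairs with calcitonin-family receptors and directs their ligand choice, had 148 FPKM in 4h CM and 0.644 at 0h, a difference of 6.51. Its partner receptor Calcrl was lower, at 1.69 in 4h CM and 8.97 at 0h, while the family member Ramp2 stood at 5.14 in 4h CM and 4.68 at 0h. Of the 4 measured genes of this receptor family, listed after Ramp3 was seen, 1 was higher and 1 lower. Vdr (chromosome 15, 97854427 to 97908296), the vitamin D receptor, had 362 FPKM in 4h CM and 6.95 at 0h, with q = 0.0338 in the authors' deposited table. Lcn2, a secreted carrier of iron-binding siderophores and lipids, had 44.8 FPKM in 4h CM and 0.0408 at 0h. Glul, glutamine synthetase, had 265 FPKM in 4h CM and 7.58 at 0h.

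Several of these genes encode enzymes or regulators that were already abundant at 4 h. Ugdh (chromosome 5, 65413222 to 65435842), which makes UDP-glucuronic acid for hyaluronan and other glycosaminoglycans, reached 2324 FPKM in 4h CM, against 75.8 at 0h. Scd1, the desaturase that makes monounsaturated fatty acids, had 534 FPKM in 4h CM and 19.0 at 0h. Arl4d, a small GTPase of the ARF family, had 41.4 FPKM in 4h CM and 0.535 at 0h. Fosl1, an AP-1 subunit, had 144 FPKM in 4h CM and 2.64 at 0h. The table gives Fosl1 the same locus as its neighbour Ccdc85b (chromosome 19, 5447698 to 5457563), which had 154 FPKM in 4h CM and 11.1 at 0h, so reads of the pair may not be cleanly separated.

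The 12 lowest members were smaller in level and in difference. Akap12 (chromosome 10, 4266329 to 4359471), a scaffold that holds protein kinase A at the membrane, had 2.64 FPKM in 4h CM and 36.5 at 0h, a difference of -3.37. Pdgfrb, the PDGF receptor beta of stromal cells, had 8.05 FPKM in 4h CM and 76.5 at 0h. Lbh, a transcriptional cofactor of the limb bud and heart, had 7.15 FPKM in 4h CM and 72.7 at 0h. These were the 3 lower genes of the authors' short list at 2-fold and q under 0.1, with q of 0.0569, 0.0569 and 0.0988. Slc40a1, the iron exporter ferroportin, had 0.708 FPKM in 4h CM and 13.6 at 0h. Serpinb8, an intracellular serine protease inhibitor, had 0.243 FPKM in 4h CM and 11.4 at 0h. The others were Akr1c14, Klhl24, Zfp41, Pik3ip1, 5430435G22Rik and the interferon-linked genes Irf1 and Irgm1. The locus given for Pik3ip1 (chromosome 11, 3202353 to 3479831) spans more than that gene.

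**Figure D2:**
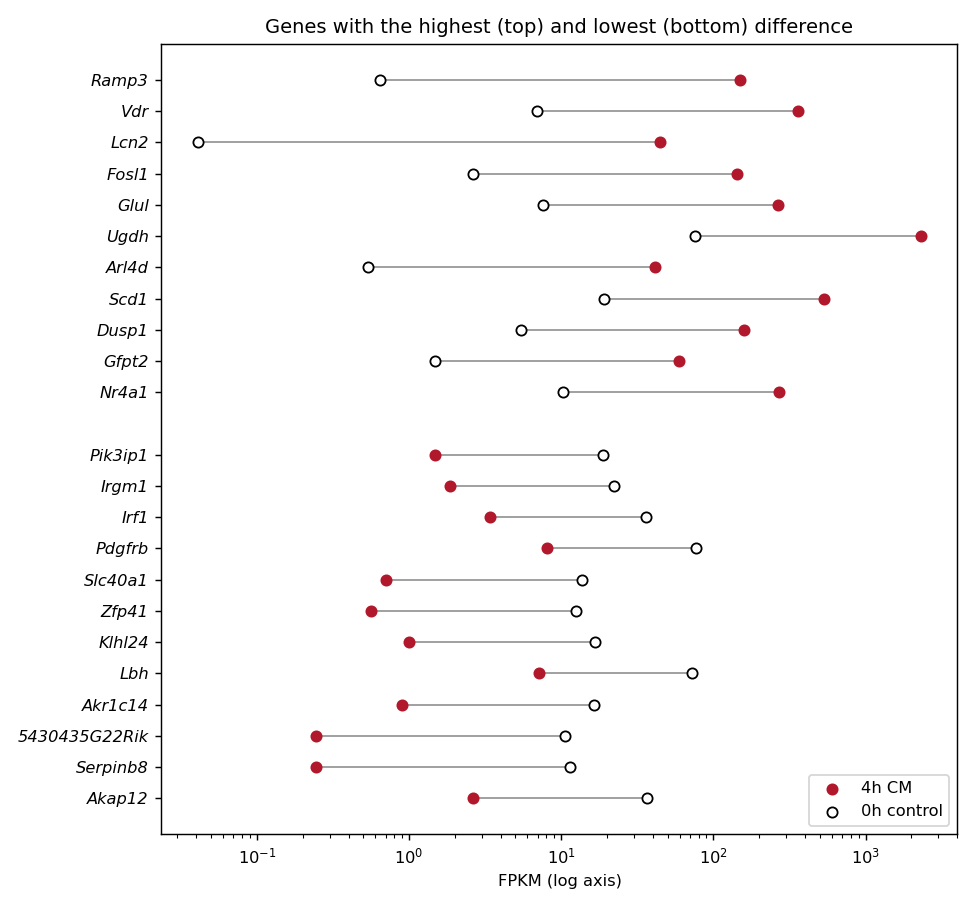
FPKM on a log axis for genes among the 12 with the highest (top) and the 12 with the lowest (bottom) difference; filled red circles are 4h CM and open circles the 0h control, 1 library each. Ugdh has the highest level shown, at 2324 FPKM in 4h CM, and Lcn2 the lowest, at 0.0408 FPKM at 0h.

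The promoters of 5 members, chosen after their values were seen, are shown because they hold the motifs of the pathways described below. Each is the window from 250 bases before to 50 after the RefSeq transcription start on build GRCm38.p6, read 5′ to 3′ on the gene's strand, with the motif in capitals. Dusp1 (chr17:26508423-26508722, minus strand) holds the full cAMP response element TGACGTCA, which starts 143 bases before the transcription start. Nr4a1 (chr15:101266596-101266895, plus strand) holds the core TGACG of that element, written here as its complement CGTCA, starting 233, 213, 69 and 40 bases before the start. Mt1 (chr8:94178839-94179138, plus strand) holds a match to the glucocorticoid response element, searched as ACA and TGT spaced by 3 bases, with a G before and a C after at 1 base's distance, starting 94 bases before. Nop2 (chr6:125131633-125131932, plus strand), a nucleolar methyltransferase gene with 108 FPKM in 4h CM and 22.2 at 0h, holds the E-box CACGTG that Myc and Max recognise, starting 60 bases before. Irgm1 (chr11:48871371-48871670, minus strand) holds overlapping copies of the interferon-stimulated response element, searched as a pair of GAAA runs spaced by 2 bases, starting 30 and 24 bases before. Only the motif named for each gene is in capitals, and the windows also hold unmarked matches to other searched motifs. The core TGACG, on either strand, also stands in Mt1, Nop2 and Irgm1, and the E-box in Dusp1. The AP-1 site TGANTCA stands in Irgm1. A match is a string of letters in this window, not a binding site shown by these data.

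Dusp1: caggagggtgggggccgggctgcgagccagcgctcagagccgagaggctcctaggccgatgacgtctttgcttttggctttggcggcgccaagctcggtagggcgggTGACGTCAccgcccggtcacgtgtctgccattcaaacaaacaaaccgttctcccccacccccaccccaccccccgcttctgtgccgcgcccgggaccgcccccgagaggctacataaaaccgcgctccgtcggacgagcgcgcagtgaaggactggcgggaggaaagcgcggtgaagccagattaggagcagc

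Nr4a1: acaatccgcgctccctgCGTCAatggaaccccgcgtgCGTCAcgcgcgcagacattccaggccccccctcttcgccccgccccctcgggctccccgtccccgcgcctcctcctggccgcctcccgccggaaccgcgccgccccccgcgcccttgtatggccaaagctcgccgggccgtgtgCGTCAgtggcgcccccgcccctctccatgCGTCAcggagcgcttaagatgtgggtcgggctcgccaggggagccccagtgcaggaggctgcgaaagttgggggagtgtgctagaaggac

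Mt1: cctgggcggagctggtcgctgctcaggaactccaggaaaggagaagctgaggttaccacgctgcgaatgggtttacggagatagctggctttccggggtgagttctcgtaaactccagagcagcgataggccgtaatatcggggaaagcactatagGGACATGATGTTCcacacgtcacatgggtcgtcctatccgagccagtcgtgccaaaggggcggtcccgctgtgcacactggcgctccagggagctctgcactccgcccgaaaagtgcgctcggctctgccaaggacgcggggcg

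Nop2: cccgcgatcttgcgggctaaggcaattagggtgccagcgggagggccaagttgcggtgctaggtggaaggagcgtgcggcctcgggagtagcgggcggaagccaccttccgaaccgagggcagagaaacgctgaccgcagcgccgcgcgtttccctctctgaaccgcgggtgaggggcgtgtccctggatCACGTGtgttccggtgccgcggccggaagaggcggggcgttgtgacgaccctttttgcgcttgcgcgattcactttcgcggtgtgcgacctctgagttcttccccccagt

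Irgm1: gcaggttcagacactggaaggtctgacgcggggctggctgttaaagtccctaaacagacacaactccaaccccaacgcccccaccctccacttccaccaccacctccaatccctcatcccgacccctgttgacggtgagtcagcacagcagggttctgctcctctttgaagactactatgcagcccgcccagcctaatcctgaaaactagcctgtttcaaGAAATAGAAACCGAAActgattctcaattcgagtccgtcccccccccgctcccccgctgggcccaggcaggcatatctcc

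Genes that the glucocorticoid receptor is known to act on were mostly higher. Of 22 measured glucocorticoid targets 14 were higher and 2 lower, with a median difference of 1.63. Fkbp5, a co-chaperone that restrains the receptor, had 477 FPKM in 4h CM and 44.2 at 0h. Tsc22d3, which encodes the anti-inflammatory protein GILZ, had 245 FPKM in 4h CM and 26.7 at 0h. Errfi1, an inhibitor of the EGF receptor, had 203 FPKM in 4h CM and 15.6 at 0h. The metallothioneins, small metal-binding proteins, were among the most abundant of the higher transcripts. Mt2 had 4318 FPKM in 4h CM and 186 at 0h, and Mt1, whose promoter is shown above, 4607 in 4h CM and 613 at 0h. Ddit4, an inhibitor of mTOR complex 1, had 126 FPKM in 4h CM and 25.1 at 0h. Angptl4, a secreted inhibitor of lipoprotein lipase, was lower at 24.9 FPKM in 4h CM, against 95.6 at 0h, and at 24h CM it had 245. The receptor gene Nr3c1 itself was lower, at 11.9 FPKM in 4h CM and 26.2 at 0h, and the mineralocorticoid receptor Nr3c2 was at 0.389 in 4h CM and 3.75 at 0h. Of the 12 measured receptor and cofactor genes 2 were higher and 2 lower, and none was higher and 2 lower after scaling to TPM. The higher ones on the deposited FPKM were the chaperone genes Hsp90aa1 (285 FPKM in 4h CM, 122 at 0h) and Stip1 (127 in 4h CM, 59.5 at 0h).

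Targets of cAMP and CREB were also mostly higher. Of 20 measured targets 15 were higher and 1 lower, with a median of 1.98. Dusp1, a phosphatase that switches off MAP kinases and a target of both pathways, had 158 FPKM in 4h CM and 5.46 at 0h. Nr4a1, an orphan nuclear receptor, had 271 FPKM in 4h CM and 10.3 at 0h. Its relatives were less abundant: Nr4a2 had 7.21 FPKM in 4h CM and 1.08 at 0h, and Nr4a3 3.16 in 4h CM and 0.0430 at 0h. The kinase gene Sik1, which feeds back on CREB coactivators, had 118 FPKM in 4h CM and 21.2 at 0h. Pde4d, a phosphodiesterase that degrades cAMP, had 29.8 FPKM in 4h CM and 4.76 at 0h. Rgs2, a brake on G-protein signalling, had 78.4 FPKM in 4h CM and 9.05 at 0h. Fos, another classic target, was within 2-fold, at 3.93 FPKM in 4h CM and 2.32 at 0h. Fosb was weakly expressed in both, at 0.336 FPKM in 4h CM and 1.40 at 0h, a plain ratio of 4.16-fold lower that stays within 2-fold on the log2(FPKM + 1) scale.

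The machinery that carries the cAMP signal differed less than its targets. Of 23 measured members 1 was higher and 3 were lower (none higher and 6 lower after scaling to TPM), with a median of -0.14. The catalytic subunit gene Prkaca had 65.4 FPKM in 4h CM and 72.3 at 0h, and Prkacb 31.5 in 4h CM and 27.9 at 0h. The regulatory subunit gene Prkar2a was higher, at 17.3 FPKM in 4h CM and 7.79 at 0h. The lower members were Akap12, described above, the kinase inhibitor Pkia (0.348 FPKM in 4h CM, 1.84 at 0h) and the phosphodiesterase Pde1b (0.177 in 4h CM, 2.50 at 0h).

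In the insulin pathway the docking proteins went apart. Irs2, which links the insulin receptor to PI3-kinase, had 70.0 FPKM in 4h CM and 12.03 at 0h. Irs1, with the same role, had 1.01 FPKM in 4h CM and 12.1 at 0h. Insr, the insulin receptor, had 6.50 FPKM in 4h CM and 8.50 at 0h, and Igf1r 8.36 in 4h CM and 8.67 at 0h. The PI3-kinase regulatory subunit Pik3r1 was higher (67.1 FPKM in 4h CM, 23.8 at 0h), and the kinase Akt2 lower (24.3 in 4h CM, 55.7 at 0h). Of 27 measured members 3 were higher and 5 lower.

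**Figure D3:**
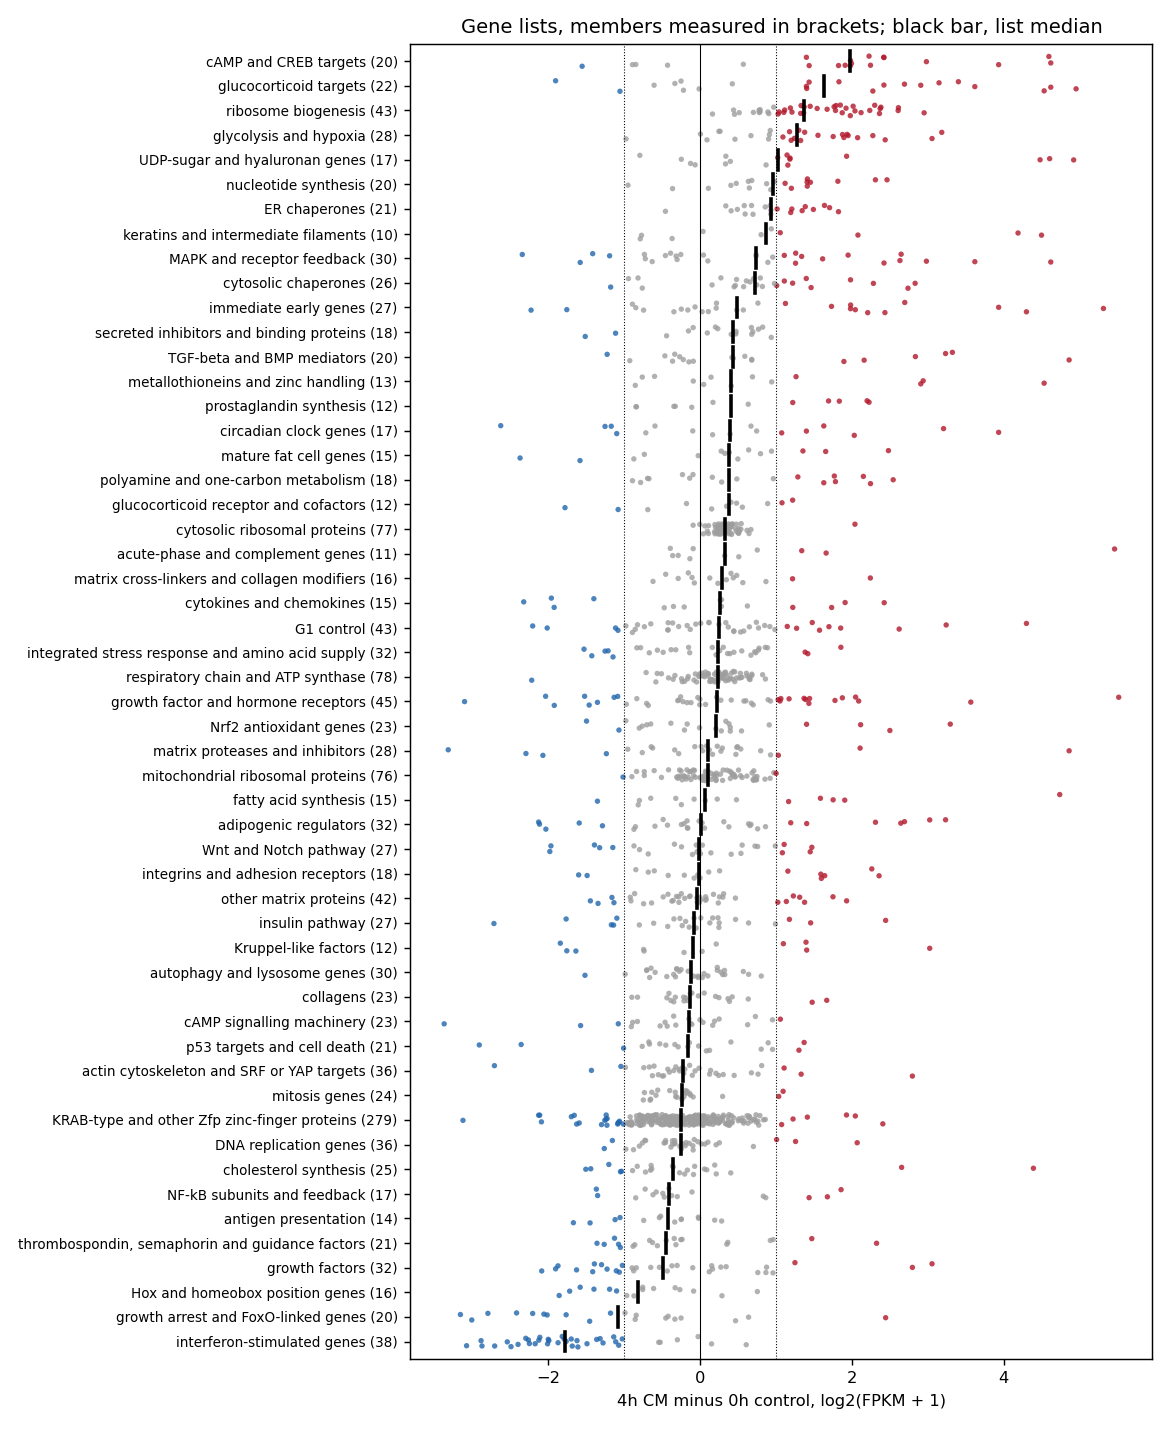
Difference between 4h CM and 0h control in log2(FPKM + 1) for each measured member of the gene lists with at least 10 measured members; each point is a gene, red at least 2-fold higher and blue at least 2-fold lower in 4h CM, and the black bar is the list median. Medians run from 1.98 for cAMP and CREB targets at the top to -1.77 for interferon-stimulated genes at the bottom.

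Immediate early genes, the first transcribed after a stimulus, were split by 4 h. Of 27 measured members 11 were higher and 2 lower (5 lower after scaling to TPM), with a median of 0.49. Myc, which drives growth and ribosome production, had 97.1 FPKM in 4h CM and 3.98 at 0h, with q = 0.0569 in the authors' deposited table. The AP-1 subunit Fosl2 had 124 FPKM in 4h CM and 18.2 at 0h, and the repressor Nfil3 96.7 in 4h CM and 5.39 at 0h. Zfp36, which destabilises mRNAs with AU-rich elements, had 51.1 FPKM in 4h CM and 11.6 at 0h. Egr1 was lower, at 6.12 FPKM in 4h CM and 32.2 at 0h, as was Klf6 at 5.54 in 4h CM and 21.0 at 0h. For Egr1, 4h MDI had 23.3 FPKM.

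Genes that damp receptor signalling gave 12 higher and 4 lower of 30, with a median of 0.74. Scaling to TPM gave 10 higher and 6 lower. Dusp6, the phosphatase of ERK, had 25.03 FPKM in 4h CM and 3.15 at 0h, and Dusp14 18.5 in 4h CM and 2.15 at 0h. Dusp4 had 6.86 FPKM in 4h CM and 2.64 at 0h. The Id genes, which encode inhibitors of basic helix-loop-helix factors and respond to BMP and TGF-beta, were all higher. Id1 had 260 FPKM in 4h CM and 35.6 at 0h, Id2 86.8 in 4h CM and 8.33 at 0h, Id3 165 in 4h CM and 36.1 at 0h, and Id4 16.2 in 4h CM and 0.720 at 0h. Smad6, which blocks BMP signalling, had 21.3 FPKM in 4h CM and 4.99 at 0h. The signal carriers Smad1, Smad2 and Smad3 differed by -0.33, -0.14 and -0.27. Of the 20 measured mediators of these pathways 6 were higher and 1 lower.

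Regulators of fat cell formation were split between first-wave activators such as Cebpb and Cebpd, which were higher, and the later factors Pparg and Cebpa, which were within 2-fold. Of 32 measured regulators 7 were higher and 5 lower (2 lower with a pseudocount of 5), and their median was 0.01 on the deposited FPKM and -0.27 after scaling to TPM. Cebpb had 784 FPKM in 4h CM and 124 at 0h, and Cebpd 45.8 in 4h CM and 6.23 at 0h. The locus given for Cebpd (chromosome 16, 15887286 to 16146851) spans more than that gene. Klf5, which acts between C/EBP-beta and PPAR-gamma, had 98.8 FPKM in 4h CM and 11.3 at 0h, and Klf9, which also acts early, 41.4 in 4h CM and 15.0 at 0h. Foxc2, a forkhead factor, had 39.8 FPKM in 4h CM and 7.22 at 0h. Pparg had 43.5 FPKM in 4h CM and 27.2 at 0h, within 2-fold. Cebpa had 7.76 FPKM in 4h CM and 8.82 at 0h, and Dlk1, a membrane protein that holds preadipocytes undifferentiated, 833 in 4h CM and 669 at 0h. For Pparg, 4h MDI had 13.1 FPKM and 24h CM 54.1, and for Cebpa, 4h MDI had 3.71 and 24h CM 38.3. Zfp423, a factor of preadipocyte commitment, was lower, at 0.920 FPKM in 4h CM and 7.36 at 0h.

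Genes of the mature fat cell gave 3 higher and 2 lower of 15 measured on the deposited FPKM (3 higher and 4 lower after scaling to TPM). The higher ones make or activate lipid: Dgat2, which completes triglycerides, had 11.4 FPKM in 4h CM and 1.22 at 0h, Dgat1 37.2 in 4h CM and 11.1 at 0h, and Acsl1, an acyl-CoA synthetase, 7.35 in 4h CM and 2.26 at 0h. The lower ones coat lipid droplets. Plin2 had 18.8 FPKM in 4h CM and 58.1 at 0h, and Plin4 3.88 in 4h CM and 24.2 at 0h. Fabp4, the fatty acid carrier of fat cells, had 35.3 FPKM in 4h CM and 27.9 at 0h, and 108 at 24h CM. Lpl, lipoprotein lipase, had 138 FPKM in 4h CM and 97.5 at 0h, and 339 at 24h CM.

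Of 15 fatty acid synthesis genes 5 were higher and 1 was lower, and their median was 0.07 on the deposited FPKM and -0.21 after scaling to TPM. Acly, which supplies acetyl-CoA, had 142 FPKM in 4h CM and 41.4 at 0h, and Fasn, fatty acid synthase, 84.9 in 4h CM and 27.6 at 0h. Elovl5, an elongase, had 123 FPKM in 4h CM and 32.1 at 0h, whereas the desaturase Fads2 had 25.6 in 4h CM and 66.8 at 0h. Of 25 cholesterol synthesis genes 2 were higher and 5 lower (1 lower with a pseudocount of 5 and 8 after scaling to TPM), and their median was -0.35 on the deposited FPKM and -0.63 after scaling to TPM. The 2 higher members stood far from the rest of the pathway: Pmvk, phosphomevalonate kinase, had 268 FPKM in 4h CM and 11.8 at 0h, and Hsd17b7 27.8 in 4h CM and 3.57 at 0h. Insig1, which retains the sterol sensor in the endoplasmic reticulum, had 5.13 FPKM in 4h CM and 16.3 at 0h, and Fdft1, squalene synthase, 3.93 in 4h CM and 12.3 at 0h.

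Of 28 measured glycolysis and hypoxia genes 18 were higher, none was lower and the median was 1.27, and 14 were higher and 1 lower after scaling to TPM. Hk2, the insulin-responsive hexokinase, had 48.9 FPKM in 4h CM and 4.49 at 0h, while Hk1, the constitutive form, had 24.4 in 4h CM and 24.2 at 0h. Ldha, which makes lactate, had 731 FPKM in 4h CM and 173 at 0h. Vegfa, an angiogenic growth factor, had 201 FPKM in 4h CM and 23.2 at 0h. Bnip3, a mitochondrial protein of hypoxia, had 162 FPKM in 4h CM and 29.0 at 0h. Egln3, an oxygen-sensing hydroxylase, had 28.4 FPKM in 4h CM and 6.60 at 0h.

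The route from glucose to UDP-sugars and hyaluronan was drawn up as a list after Ugdh and Gfpt2 were seen among the highest genes, so its count is a description of those values. Of its 17 measured members 9 were higher, none was lower and the median was 1.02, and 4 were higher and 1 lower after scaling to TPM. Gfpt2, which commits fructose 6-phosphate to the hexosamine pathway, had 59.5 FPKM in 4h CM and 1.49 at 0h, and its paralogue Gfpt1 107 in 4h CM and 46.3 at 0h. Uap1, which makes UDP-N-acetylglucosamine, had 407 FPKM in 4h CM and 17.3 at 0h, with q = 0.0338 in the authors' deposited table. Gnpnat1, an acetyltransferase of the same route, had 18.4 FPKM in 4h CM and 9.58 at 0h. Vcan, a large proteoglycan that binds hyaluronan, had 686 FPKM in 4h CM and 179 at 0h, and Cd44, the hyaluronan receptor, 37.3 in 4h CM and 16.2 at 0h. Ugdh and Uap1 were lower again at 24h CM, at 121 and 79.8 FPKM, and Vcan was at 688.

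Most ribosome biogenesis genes were higher. Of 43 members 31 (72.1%) were higher (25 after scaling to TPM), none was lower and the median was 1.37, and all 43 differences were above 0 on the deposited FPKM. Nop56 and Nop58, core proteins of the box C/D snoRNA particles that guide rRNA methylation, had 283 and 99.9 FPKM in 4h CM and 35.7 and 28.1 at 0h. Nolc1, a nucleolar chaperone, had 131 FPKM in 4h CM and 20.5 at 0h. Rrp12 and Rrs1, assembly factors of the ribosomal subunits, had 30.5 and 65.3 FPKM in 4h CM and 4.14 and 11.8 at 0h. Fbl, the rRNA methyltransferase fibrillarin, had 112 FPKM in 4h CM and 51.6 at 0h. The ribosomal proteins themselves, whose many processed pseudogenes can share their reads, differed far less: of 77 cytosolic ones 1 was called higher, Rpl26, which was at 3.12 FPKM in 4h CM and listed at 0 at 0h, and their median was 0.33 (0.05 after scaling to TPM). Rpl12 had 5266 FPKM in 4h CM and 3426 at 0h, and Rpl10 2730 in 4h CM and 2732 at 0h.

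Part of the genes that make nucleotides and polyamines were higher. Of 20 nucleotide synthesis genes 9 were higher, none was lower and the median was 0.96. Uck2, a uridine-cytidine kinase, had 95.2 FPKM in 4h CM and 16.5 at 0h. Ctps, CTP synthase, had 48.2 FPKM in 4h CM and 8.91 at 0h. Cad, which starts pyrimidine synthesis, had 41.9 FPKM in 4h CM and 15.1 at 0h, and Ppat, which starts purine synthesis, 21.1 in 4h CM and 5.27 at 0h. Of 18 polyamine and one-carbon genes 7 were higher and none lower. Their median was 0.39 as deposited and 0.12 after scaling to TPM, where 2 were lower. Odc1, the first enzyme of polyamine synthesis, had 143 FPKM in 4h CM and 23.7 at 0h, and Srm, spermidine synthase, 206 in 4h CM and 42.6 at 0h. Mthfd1l and Mthfd2, mitochondrial folate enzymes, had 28.9 and 57.0 FPKM in 4h CM and 5.73 and 16.0 at 0h.

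Mitochondrial energy genes were almost all within 2-fold. The 78 respiratory chain and ATP synthase members had none higher and 1 lower, Ndufs5, which was listed at 0 in 4h CM and at 3.64 FPKM at 0h. Their median was 0.24 on the deposited FPKM and -0.05 after scaling to TPM. Of 76 mitochondrial ribosomal proteins 1 was higher, Mrpl17 (8.45 FPKM in 4h CM, 3.72 at 0h), and 1 lower, Mrps6 (116 in 4h CM, 236 at 0h).

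Protein folding genes were higher in part. Of 21 chaperones of the endoplasmic reticulum 9 were higher (6 after scaling to TPM), none was lower and the median was 0.93. Hspa5, the master chaperone BiP, had 1299 FPKM in 4h CM and 397 at 0h, and P4hb, a protein disulfide isomerase, 1104 in 4h CM and 434 at 0h. Manf, a secreted stress protein, had 104 FPKM in 4h CM and 28.8 at 0h. Of 26 cytosolic chaperones 9 were higher and 1 lower, and 6 were higher and 4 lower after scaling to TPM. Dnajb4 had 246 FPKM in 4h CM and 33.7 at 0h, Hsph1 102 in 4h CM and 14.4 at 0h, and Bag3 155 in 4h CM and 31.0 at 0h. The heat-inducible Hspa1a and Hspa1b, near-identical copies whose reads cannot be cleanly divided, were at 0.939 and 4.32 FPKM in 4h CM and 2.28 and 9.21 at 0h. Of 32 integrated stress response genes 3 were higher and 5 lower (1 lower with a pseudocount of 5), and their median was 0.24 on the deposited FPKM and -0.04 after scaling to TPM. Ddit3, which encodes the stress factor CHOP, had 25.7 FPKM in 4h CM and 62.5 at 0h, and Atf4 160 in 4h CM and 117 at 0h. The amino acid carrier Slc7a5 had 67.1 FPKM in 4h CM and 17.8 at 0h.

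Antioxidant genes under Nrf2 control gave 4 higher and 2 lower of 23 (5 lower after scaling to TPM). Gclc, the rate-limiting enzyme of glutathione synthesis, had 45.2 FPKM in 4h CM and 3.71 at 0h, and Srxn1, sulfiredoxin, 113 in 4h CM and 19.1 at 0h. Hmox1, heme oxygenase 1, was lower, at 45.8 FPKM in 4h CM and 131 at 0h, and Nqo1 was at 16.8 in 4h CM and 19.5 at 0h. Zinc handling went with the metallothioneins in part. The zinc importer Slc39a14 had 79.0 FPKM in 4h CM and 9.43 at 0h, and the exporter Slc30a1 5.12 in 4h CM and 1.55 at 0h.

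Interferon-stimulated genes, which encode antiviral proteins and were expressed at 0h, were lower as a group. Of 38 measured members none was higher and 32 were lower (21 with a pseudocount of 5), with a median of -1.77. Irf1, a transcription factor of the interferon response, had 3.38 FPKM in 4h CM and 35.8 at 0h. Ifit3 and Ifit1, which bind foreign RNA, had 1.54 and 2.47 FPKM in 4h CM and 17.7 and 17.3 at 0h. Oasl2, of the oligoadenylate synthetase family, had 3.16 FPKM in 4h CM and 29.3 at 0h. Rtp4 had 1.95 FPKM in 4h CM and 15.5 at 0h, and Parp14 0.678 in 4h CM and 9.91 at 0h. The interferon-inducible GTPases, which attack vacuoles of intracellular parasites, were grouped after their values were seen, and all 9 measured members were lower. Irgm1 had 1.85 FPKM in 4h CM and 22.2 at 0h, Igtp 0.575 in 4h CM and 8.13 at 0h, and Gbp2 1.503 in 4h CM and 10.9 at 0h.

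Antigen presentation was split by gene. B2m, the invariant chain of MHC class I, had 1554 FPKM in 4h CM and 1358 at 0h, and H2-D1, a heavy chain gene with close paralogues, 141 in 4h CM and 115 at 0h. The peptide transporters were lower, with Tap1 at 6.87 FPKM in 4h CM and 15.3 at 0h and Tap2 at 4.99 in 4h CM and 17.99 at 0h. The immunoproteasome subunits Psmb8 and Psmb10 were lower as well, at 4.94 and 10.3 FPKM in 4h CM and 11.9 and 29.7 at 0h. Of 14 members none was higher and 4 were lower.

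Chemokines and NF-kB genes went both ways. Of 15 measured cytokine and chemokine genes 4 were higher and 4 lower. Ccl2 and Ccl7, which attract monocytes, had 3.28 and 4.25 FPKM in 4h CM and 15.6 and 18.8 at 0h, and Cxcl5, which attracts neutrophils, 5.001 in 4h CM and 28.9 at 0h. For Ccl2, 4h MDI had 20.3 FPKM. The membrane-bound chemokine Cx3cl1 had 87.6 FPKM in 4h CM and 15.5 at 0h, and Clcf1, a cytokine of the IL-6 family, 77.3 in 4h CM and 19.8 at 0h. Of 17 NF-kB genes 3 were higher and 2 lower (4 lower after scaling to TPM), and 12 differences were below 0. The inhibitors Nfkbia and Nfkbiz had 66.6 and 24.3 FPKM in 4h CM and 23.9 and 6.90 at 0h, while the subunit Relb had 4.42 in 4h CM and 12.9 at 0h. Beside Lcn2, the acute-phase gene Saa3 was higher, at 4.02 FPKM in 4h CM and 0.588 at 0h, and at 24h CM it had 41.5. Prostaglandin synthesis had 5 higher (3 with a pseudocount of 5) and none lower of 12. Ptges, the inducible prostaglandin E synthase, had 154 FPKM in 4h CM and 42.3 at 0h, and Ptgs2, inducible cyclooxygenase, 10.2 in 4h CM and 1.39 at 0h.

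Secreted growth factors were lower more often than higher, with 3 higher and 11 lower of 32 (6 lower with a pseudocount of 5) and a median of -0.48. Besides Vegfa, the matricellular factor Cyr61 was higher, at 77.6 FPKM in 4h CM and 10.3 at 0h. Tgfb3 had 5.31 FPKM in 4h CM and 22.03 at 0h, and Vegfc, a lymphatic growth factor, 2.58 in 4h CM and 10.02 at 0h. Wisp2 had 2.17 FPKM in 4h CM and 12.4 at 0h. Secreted antagonists and binding proteins had none higher and 2 lower (11.1%) of 18. Their median was 0.44 (0.13 after scaling to TPM), and 13 of the 18 differences were above 0. The 2 lower ones were the BMP inhibitor Grem1 (25.9 FPKM in 4h CM, 75.5 at 0h) and the Wnt inhibitor Sfrp2 (19.5 in 4h CM, 43.1 at 0h).

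Receptors for growth factors and hormones gave 14 higher and 8 lower of 45 (3 lower with a pseudocount of 5). Their median was 0.22 on the deposited FPKM and -0.20 after scaling to TPM, where 10 were higher and 10 lower. Il1rl1, the receptor of interleukin 33, had 144 FPKM in 4h CM and 11.2 at 0h, with q = 0.0729 in the authors' deposited table. It had 467 FPKM in 4h MDI and 2.92 in 24h CM. Il4ra had 17.6 FPKM in 4h CM and 3.48 at 0h, and the TNF receptor Tnfrsf1b 26.9 in 4h CM and 5.54 at 0h. Receptors of the stromal cell were lower: Pdgfra had 46.1 FPKM in 4h CM and 191 at 0h, beside Pdgfrb. Egfr had 3.50 FPKM in 4h CM and 10.4 at 0h. At 24h CM, Pdgfra had 179 FPKM and Pdgfrb 4.68.

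In the Wnt and Notch pathways 4 of 27 members were higher and 5 lower (1 lower with a pseudocount of 5 and 8 after scaling to TPM). Wnt4 had 17.2 FPKM in 4h CM and 5.56 at 0h, and Wnt6 0.895 in 4h CM and 6.37 at 0h. The receptor Fzd2 had 9.94 FPKM in 4h CM and 42.003 at 0h, and Notch1 3.243 in 4h CM and 10.1 at 0h, while the Notch target Hes1 had 25.6 in 4h CM and 8.73 at 0h. Hox genes, which record position along the body axis, had none higher and 6 lower of 16, with a median of -0.81. That count rested on weakly expressed genes and was 1 with a pseudocount of 5, where the median was -0.33, and 10 with a pseudocount of 0.1. Hoxd8 had 12.9 FPKM in 4h CM and 30.6 at 0h, and Hoxa7 3.56 in 4h CM and 15.4 at 0h. The 279 measured Zfp-named zinc-finger genes had 6 higher and 19 lower, with a median of -0.25, and 4 were lower with a pseudocount of 5 and 54 after scaling to TPM.

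Collagens were mostly within 2-fold, with 2 higher and none lower of 23. The 2 were the basement membrane chains Col4a1 (1457 FPKM in 4h CM, 457 at 0h) and Col4a2 (859 in 4h CM, 308 at 0h), which lie head to head in the genome. Of 42 other matrix proteins 7 were higher and 4 lower, and 4 were higher and 8 lower after scaling to TPM. Lama5, a laminin chain, had 5.64 FPKM in 4h CM and 0.971 at 0h, and Tnc, tenascin C, 24.2 in 4h CM and 9.14 at 0h. Thbs2 and Emilin1 were lower, at 94.7 and 36.2 FPKM in 4h CM and 241 and 99.9 at 0h. P4ha2, which hydroxylates collagen prolines, had 93.1 FPKM in 4h CM and 18.9 at 0h. Among 28 proteases and inhibitors 3 were higher and 4 lower. Plat, tissue plasminogen activator, was lower at 22.2 FPKM in 4h CM, against 96.1 at 0h. The aggrecanases Adamts9 and Adamts5 stood apart, with Adamts9 at 28.0 FPKM in 4h CM and 5.72 at 0h and Adamts5 at 2.73 in 4h CM and 17.2 at 0h.

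Adhesion receptors included 6 higher and 2 lower of 18, and 5 higher and 4 lower after scaling to TPM. Itga5, the fibronectin receptor chain, had 278 FPKM in 4h CM and 57.1 at 0h, and Itgb3 44.8 in 4h CM and 14.2 at 0h. The syndecans Sdc4 and Sdc1 had 178 and 245 FPKM in 4h CM and 33.9 and 77.7 at 0h. Actin and SRF or YAP target genes had 3 higher and 3 lower of 36 (8.33% each, near the shares over all members), with a median of -0.22, and 2 higher and 6 lower after scaling to TPM. Fhl2, a cofactor of SRF, had 6.80 FPKM in 4h CM and 49.9 at 0h. Acta2, smooth muscle actin, had 103 FPKM in 4h CM and 82.9 at 0h, and it had 345 in 4h MDI and 3.56 in 24h CM. Keratins of epithelia appeared at low to moderate levels: Krt13 had 25.5 FPKM in 4h CM and 0.173 at 0h, and Krt15 22.6 in 4h CM and 0.296 at 0h. The 7 epithelial markers summed to 0 FPKM in 4h CM and 0.0617 at 0h.

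Clock genes gave 6 higher and 4 lower of 17, and their median was 0.40 on the deposited FPKM, -0.12 after scaling to TPM and -0.002 without the low-value filter. Per2 and Per1, repressors at the core of the clock, had 22.4 and 41.97 FPKM in 4h CM and 1.53 and 15.3 at 0h, and Cry1 17.6 in 4h CM and 5.01 at 0h. Dbp, an output gene of the clock, had 1.34 FPKM in 4h CM and 13.4 at 0h.

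Growth arrest and FoxO-linked genes were listed after several were seen among the lowest members, so their count only describes that choice: of 20 genes 1 was higher (Irs2) and 10 lower. Klhl24 had 1.00 FPKM in 4h CM and 16.8 at 0h, Pik3ip1, an inhibitor of PI3-kinase, 1.49 in 4h CM and 18.9 at 0h, and Ypel3, a gene of senescence, 6.83 in 4h CM and 53.2 at 0h. Sesn3, an inhibitor of mTOR complex 1, had 11.3 FPKM in 4h CM and 64.8 at 0h. Mxd4, which opposes Myc, had 22.8 FPKM in 4h CM and 108 at 0h, and Ccng2, a cyclin of quiescent cells, 7.33 in 4h CM and 32.6 at 0h.

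Of 43 genes of G1 control 9 were higher and 4 lower, and their median was 0.25 on the deposited FPKM and -0.05 after scaling to TPM, which gave 9 higher and 9 lower. Ccnd3 had 241 FPKM in 4h CM and 73.5 at 0h, while Ccnd1 had 39.7 in 4h CM and 43.4 at 0h and Ccnd2 57.6 in 4h CM and 77.6 at 0h. Gadd45g, a stress and arrest gene, had 65.9 FPKM in 4h CM and 6.07 at 0h. Mitosis genes had 2 higher (8.33%) and none lower of 24, but none higher and 2 lower after scaling to TPM. Their median was -0.24, and 21 of the 24 differences were below 0. Top2a had 21.8 FPKM in 4h CM and 9.69 at 0h, and Ccnb2 3.29 in 4h CM and 6.12 at 0h. Of 36 replication genes 3 were higher (8.33%) and 2 lower (5.56%), no more than the 9.33% and 9.18% over all members, and 2 were higher and 8 lower after scaling to TPM. Pcna, the sliding clamp, had 238 FPKM in 4h CM and 55.9 at 0h, while the helicase subunits Mcm2, Mcm3 and Mcm4 were within 2-fold, with differences of -0.33, -0.33 and -0.07. Of 21 measured p53 target and cell death genes 2 were higher (9.52%) and 3 lower (14.3%), and 4 were lower after scaling to TPM. The higher ones were Bid (60.9 FPKM in 4h CM, 22.9 at 0h) and Aen (42.9 in 4h CM, 16.8 at 0h). Among the lower ones, the death receptor gene Fas had 1.88 FPKM in 4h CM and 20.5 at 0h. Bbc3, which encodes the killer protein PUMA, had 1.09 FPKM in 4h CM and 9.65 at 0h. Mdm2, the p53 ligase, had 523 FPKM in 4h CM and 576 at 0h. Lysosome and autophagy genes had none higher and 1 lower of 30, Gabarapl1, with 32.3 FPKM in 4h CM and 94.0 at 0h.

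**Figure D4:**
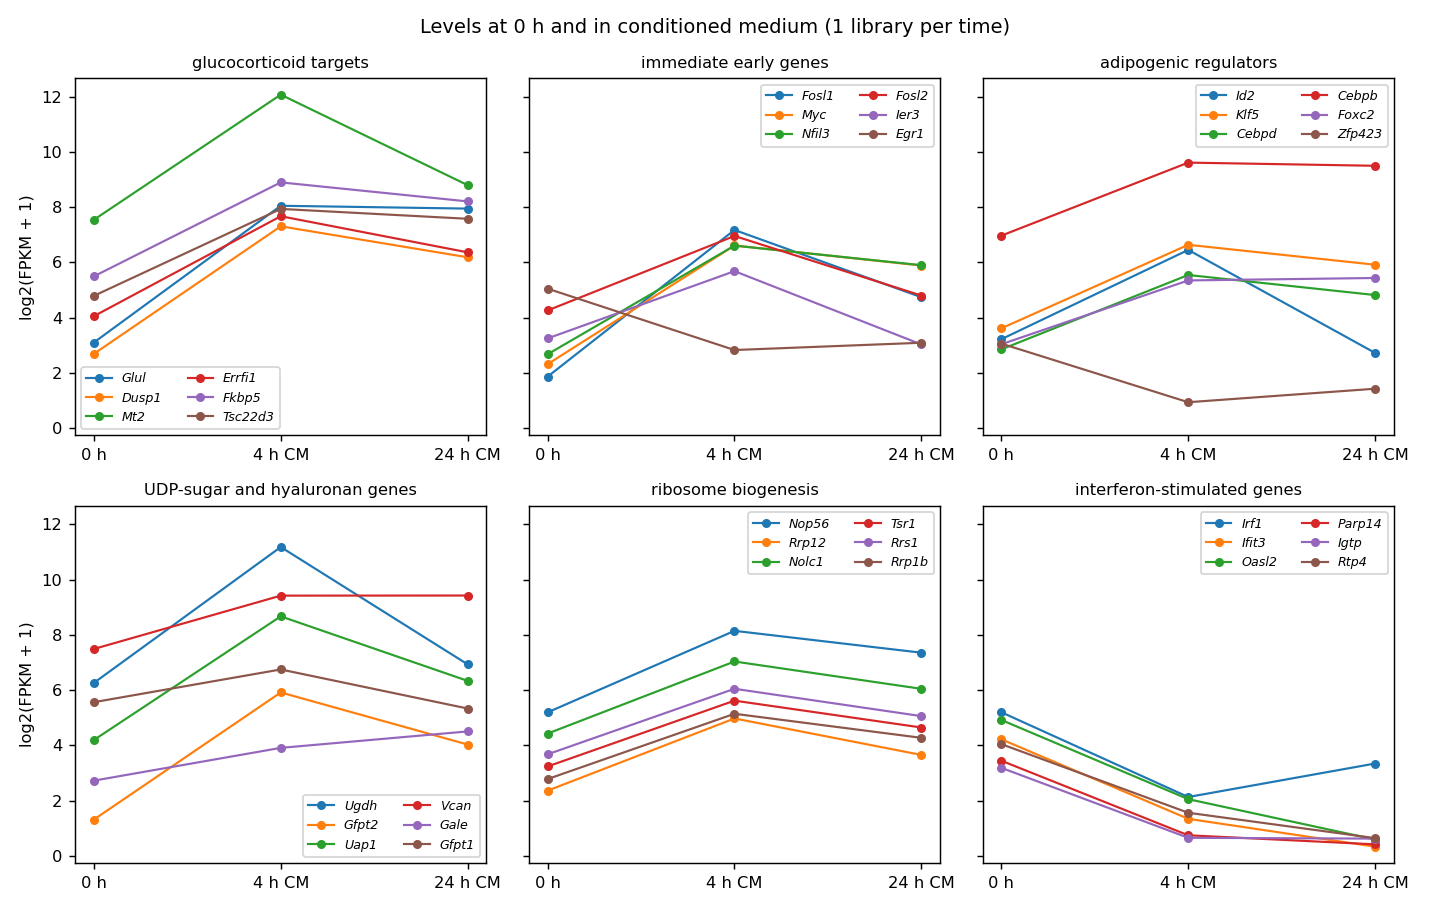
Levels in log2(FPKM + 1) at 0 h, 4 h in CM and 24 h in CM (1 library per time) for the 6 members of each of 6 lists with the largest absolute difference at 4 h. Id2 and Ugdh peak at 4 h, Cebpb and Vcan stay near their 4 h level at 24 h, and the interferon-stimulated genes other than Irf1 are at or below their 4 h level at 24 h.

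The time course of the leading genes at 0 h, 4 h and 24 h in conditioned medium took several forms. Glul was at 7.58, 265 and 246 FPKM and Cebpb at 124, 784 and 724, so both stood near their 4 h level a day after the change. Vdr was at 6.95, 362 and 26.8 FPKM, Ramp3 at 0.644, 148 and 4.28, and Id2 at 8.33, 86.8 and 5.61, with the peak at 4 h. Lcn2 was at 0.0408, 44.8 and 275 FPKM, highest at 24 h. Ccnb1, the mitotic cyclin, was at 6.56, 5.89 and 50.4 FPKM, and Acta2 at 82.9, 103 and 3.56, so both differed at 24 h and not at 4 h by the 2-fold rule.

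In fresh MDI at the same time some of these genes stood elsewhere; 4h MDI against 0h uses the same 0h library, so only levels are given. Cyr61 had 77.6 FPKM in 4h CM and 423 in 4h MDI, and Akap12 2.64 in 4h CM and 24.1 in 4h MDI. Ramp3 had 148 FPKM in 4h CM and 95.1 in 4h MDI, Vdr 362 in 4h CM and 387 in 4h MDI, and Fkbp5 477 in 4h CM and 390 in 4h MDI.

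RefSeq promoters were matched for 796 of the 991 higher genes (80.3%), 7050 of the 8652 within 2-fold (81.5%) and 772 of the 975 lower genes (79.2%). The last is under 80%, so the shares of the lower genes are void and not given, and the same holds for the interferon-stimulated genes, with 27 of 38 matched. The core TGACG, on either strand and including copies inside full elements, stood in 41.8% of the higher genes' promoters and 33.9% of those within 2-fold, against 21.0% of the 27025 promoters of the RefSeq table, taken as 1 per gene. The median GC content of these promoters was 64.0% for the higher genes and 61.3% for those within 2-fold, and the part of base composition in the shares was not tested. Of the 16 cAMP targets with a promoter 14 held the core (87.5%), Dusp1 and Nr4a1 among them. These genes were listed as known targets of cAMP and CREB, so that share describes the list and is no result of these libraries. The full element TGACGTCA stood in 3.27% of the higher genes' promoters and 3.56% of those within 2-fold. The E-box CACGTG stood in 12.4% and 10.4% of those promoters, in 10 of 38 ribosome biogenesis promoters (26.3%), Nop2 among them, and in 7.24% of all promoters. The glucocorticoid response element stood in 6 of the higher genes' promoters (0.754%), 14 of those within 2-fold (0.199%) and 0.463% of all promoters. Shares this small rest on few promoters, and whether the motif goes with higher expression was not tested. The element stood in 1 of 19 glucocorticoid target promoters. That single one is Mt1. The other motifs, also searched on both strands, were the AP-1 site TGANTCA, the C/EBP palindrome TTGCGCAA, the amino acid response element TGATGNAAT, the NF-kB site (GGG and TTTCC spaced by 2 bases), the heat shock element (GAA, TTC and GAA spaced by 2 bases) and the serum response CArG box. The CArG box stood in 2.14% of the higher genes' promoters, 1.21% of those within 2-fold and 1.57% of all promoters, and the AP-1 site in 4.77%, 4.20% and 7.93%.

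**Figure D5:**
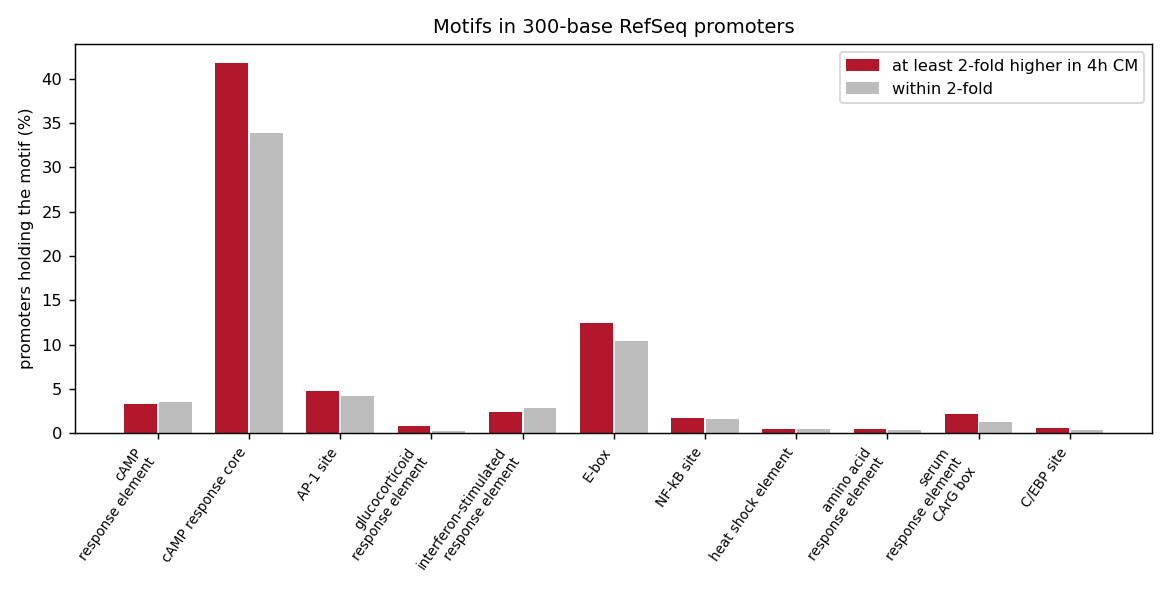
Share of 300-base RefSeq promoters that hold each of 11 motifs on either strand, in percent, for the genes at least 2-fold higher in 4h CM (red, 796 promoters) and those within 2-fold of 0h control (grey, 7050 promoters). The core of the cAMP response element has the largest gap between the bars, 41.8% and 33.9%.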

How the data were processed

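RNA was extracted with Trizol and sequenced from libraries made by a standard Illumina procedure, per the labels' protocols. TopHat2 2.0.13 and Cuffdiff 2.2.0 were used, per the submitters' processing notes; their settings, the strandedness and the genome build were not given in the sources used here. For pairs of libraries the authors deposited FPKM of 23996 genes, with a p-value and a q-value from Cuffdiff, per the file headers. A library had identical FPKM in all tables. FPKM give no read totals, so depth is unknown, and a line of each table was empty. Loci overlapped the GENCODE M21 gene of the same symbol for 10164 of 10170 symbols (99.9%).

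From these values log2(FPKM + 1) differences, 2-fold counts and list medians were computed in Python 3.11.15 with pandas 2.3.3. The counting code was run on simulated libraries in which well-expressed genes had set folds past the rule. That run checks the code only, not weakly expressed genes or the spread between cultures. With 1 library per group no test was made. The members and lists were chosen with earlier results of these data known, and 4 lists (UDP-sugar and hyaluronan genes, interferon-inducible GTPases, growth arrest and FoxO-linked genes, calcitonin-family receptors) after the values were seen. Named genes are the 12 highest and 12 lowest with an FPKM of at least 5 in the higher library, the protein-coding genes of the authors' sheet at q under 0.1, in each list the 6 members with the largest absolute difference and its first 3 entries, and 8 adipogenic and receptor genes; a few that this rule takes are not reported here. Alternatives were pseudocounts of 0.1 and 5, all genes with no filter on low values, a minimum FPKM of 5, median-of-ratios and TPM scaling, and genes that Cuffdiff marked as testable.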

Additional observations from a re-analysis of the deposited data

Results flagged for a closer look

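In 3 genes the 4h CM library was at least 2-fold lower and the 4h MDI library at least 2-fold higher than the same 0h library; each value is 1 library, and the difference between the media was not tested. Fgf2, a fibroblast growth factor, was at -1.06 in 4h CM and 1.92 in 4h MDI on the log2(FPKM + 1) scale, from 3.44 FPKM in 4h CM, 33.9 in 4h MDI and 8.25 at 0h. Klhdc8a, a kelch-domain gene, was at -1.04 in 4h CM and 1.68 in 4h MDI. Pak1, a kinase that acts on the cytoskeleton, was at -1.17 in 4h CM and 1.41 in 4h MDI, from 5.31 FPKM in 4h CM, 36.6 in 4h MDI and 13.1 at 0h.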

How the results depend on the processing

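With 991 higher and 975 lower genes as reported, a pseudocount of 5 gave 647 higher and 326 lower, a pseudocount of 0.1 gave 1156 higher and 1484 lower, and scaling to TPM gave 673 higher and 1890 lower, so the balance of directions depended on both choices. An FPKM of at least 5 gave 933 and 757, median-of-ratios scaling 981 and 988, and the counts were 991 and 975 without the low-value filter and over genes Cuffdiff marked as testable. A gene past 2-fold could not change sign under these alternatives. Pseudocounts and filters keep the sign, TPM scaling lowers a log2 ratio by only 0.29, and median-of-ratios scaling shifts it by less. No list median past 2-fold changed sign. Of 425 named genes 63 crossed the 2-fold line under a pseudocount of 5, 42 under TPM, 19 under 0.1 and 1 under median-of-ratios scaling. Among list medians within 2-fold, 14 that were above 0 were below it after scaling to TPM, and the median of the clock genes was also below 0 without the filter. At an FPKM of at least 5 the medians of the Kruppel-like factors and the integrins, both below 0 as reported, were 0.12. No paired analysis was possible because each group holds 1 library. The spread between cultures is unknown, as is depth, which limits what can be said of weakly expressed genes.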

Other observations

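Non-coding genes lie outside the members. Of 283 genes typed as non-coding RNA, leaving out microRNA and snoRNA names, 21 were at least 2-fold higher in 4h CM and 26 lower. The higher share was below the 9.33% over all protein-coding members, and the lower share was near their 9.18%. The median difference was -0.28. Neat1, the scaffold RNA of nuclear paraspeckles, had 287 FPKM in 4h CM and 120.5 at 0h, and Malat1, its neighbour in the genome, 85.4 in 4h CM and 85.7 at 0h. The snoRNA host genes Snhg1 and Gas5 had 210 and 63.1 FPKM in 4h CM and 76.5 and 31.8 at 0h. Dnm3os, the antisense transcript of Dnm3, had 13.4 FPKM in 4h CM and 47.8 at 0h. These genes were named after their values were seen. Of 60 genes with microRNA or snoRNA names 24 were listed at 0 in a library, so their FPKM are not described. On chromosome X 4.39% of 342 members were higher and 10.5% lower, against 9.33% and 9.18% of all members. The lower share was not particular to X, as it was larger on chromosomes 6 (13.8% of 516 members), 10 (11.5%) and 17 (10.9%).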
